A study of Mus musculus with 12 samples.

Results

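Peaks of open chromatin from the livers of high-fat-fed Sham mice were compared with those of chow-fed Control mice. A Sham peak that overlapped no Control peak by at least 1 bp was called gained, and a Control peak that overlapped no Sham peak was called lost. By this rule 16304 of the 52881 Sham peaks were gained and 5145 of the 42204 Control peaks were lost, out of 139624 peaks in the 3 lists of the series. The mice were male C57BL/6J, with 2 mice in each group, whose livers gave both the FAIRE-seq and the RNA-seq libraries. Control mice were age-matched, ate standard chow for 28 weeks and had no surgery. Sham mice were given a diet with 60 kcal% fat (D12492) from 8 weeks of age, for 14 weeks before and 14 weeks after a sham operation in which the stomach was exposed and pressed with forceps, with liquid food around the operation. Mice of the third group, VSG, ate the same high-fat diet and had most of the stomach removed (vertical sleeve gastrectomy). Sham and Control mice thus differed in diet and in surgery, which cannot be told apart here. The authors kept peaks that were found reproducibly in both mice of a group, so each group has 1 pooled list without values for single mice, and of unknown depth. Gained and lost peaks are therefore described without a test, and intervals given with a share cover counting error only.

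In FAIRE-seq, formaldehyde fixes histones to DNA and the DNA left free of nucleosomes is recovered and sequenced, so peaks mark promoters, enhancers and, at some genes of very high activity, transcribed gene bodies. Enhancers of the liver are bound by factors such as HNF4A, FOXA, CEBP and HNF1, which keep hepatocyte genes active, and by factors that answer to signals, such as PPAR (fatty acids), AP-1 (stress and growth), STAT (cytokines) and the glucocorticoid receptor (fasting and stress hormones). CTCF sites mark insulators and loop anchors, and CpG-rich promoters are open in most tissues. Bulk liver is mostly hepatocytes with endothelial, Kupffer and stellate cells between them, and a smaller number of cells of a type cannot be told apart from less signal or RNA per cell. The label of liver was checked on markers: 13 of 14 hepatocyte markers had a Sham promoter peak and 11 of 14 a Control one, against 2 of 10 markers of tissues outside the liver in each list.

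The sequences of 4 gained peaks are printed first, since gained peaks ranged from sites without any searched motif to sites with several CEBP matches beside acute phase genes. Each is given 5′ to 3′ on the plus strand of mm9 (NCBIM37), with motif matches in capitals, and peaks above 300 bp are given by their central 300 bp. The peak at chr6:108633191-108633465, intergenic and 22460 bp from the nearest annotated transcript start of Bhlhe40, a repressor of the circadian clock, is the strongest gained peak that lies between genes and holds no searched motif. The peak at chr3:82842862-82843141 lies past the 3′ end of Fga, which encodes a fibrinogen chain, 6323 bp from the nearest annotated transcript start, one inside the gene, and holds 3 CEBP matches. The window at chr4:63003539-63003838 lies 1905 bp from the start of Orm1, an acute phase protein gene, and holds 2 CEBP matches. The window at chr6:115430374-115430673 lies in an intron of Pparg, the fat cell regulator of lipid storage, and holds a GATA, a PU.1 and an AP-1 match in this order.
Bhlhe40 gained peak: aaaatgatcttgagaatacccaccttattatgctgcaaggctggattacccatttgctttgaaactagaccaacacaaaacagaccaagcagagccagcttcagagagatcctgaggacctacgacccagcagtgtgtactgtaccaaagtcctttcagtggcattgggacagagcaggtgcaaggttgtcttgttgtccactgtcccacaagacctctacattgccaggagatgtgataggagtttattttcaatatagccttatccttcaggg
Fga gained peak: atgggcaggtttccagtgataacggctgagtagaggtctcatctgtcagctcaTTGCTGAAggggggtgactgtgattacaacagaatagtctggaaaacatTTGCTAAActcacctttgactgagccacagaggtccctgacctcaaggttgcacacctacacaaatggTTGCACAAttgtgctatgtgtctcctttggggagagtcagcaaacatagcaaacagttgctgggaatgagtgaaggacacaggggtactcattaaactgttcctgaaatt
Orm1 gained peak: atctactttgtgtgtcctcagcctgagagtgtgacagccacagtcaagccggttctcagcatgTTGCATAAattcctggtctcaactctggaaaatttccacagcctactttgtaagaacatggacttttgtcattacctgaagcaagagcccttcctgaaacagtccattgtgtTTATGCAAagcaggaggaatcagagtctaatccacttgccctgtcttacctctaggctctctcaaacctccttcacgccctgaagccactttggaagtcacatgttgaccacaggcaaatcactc
Pparg gained peak: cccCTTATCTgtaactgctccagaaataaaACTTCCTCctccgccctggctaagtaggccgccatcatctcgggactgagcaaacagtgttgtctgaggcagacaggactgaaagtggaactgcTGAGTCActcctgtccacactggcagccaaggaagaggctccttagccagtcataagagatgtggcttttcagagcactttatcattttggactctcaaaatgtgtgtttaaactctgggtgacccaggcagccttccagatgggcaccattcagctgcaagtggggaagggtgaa

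A further 2 sequences stand for the peaks that moved the other way or in rank. The window at chr14:70027049-70027348, in an intron of Loxl2, a lysyl oxidase that crosslinks collagen, is from the shared peak with the largest gain in rank and holds a CTCF match and an E-box. The window at chr8:112511553-112511852 is the lost peak 2634 bp from the start of Tat, which encodes tyrosine aminotransferase, a hepatocyte enzyme of amino acid breakdown induced by glucocorticoids, and holds a STAT match. These 6 sequences were chosen after their values were seen.
Loxl2 shared peak, higher rank in Sham: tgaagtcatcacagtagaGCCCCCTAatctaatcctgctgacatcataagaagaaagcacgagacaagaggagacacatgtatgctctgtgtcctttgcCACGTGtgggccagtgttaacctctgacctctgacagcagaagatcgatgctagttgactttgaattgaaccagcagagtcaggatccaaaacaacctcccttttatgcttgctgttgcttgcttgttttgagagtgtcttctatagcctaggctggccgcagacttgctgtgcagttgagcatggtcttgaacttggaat
Tat lost peak: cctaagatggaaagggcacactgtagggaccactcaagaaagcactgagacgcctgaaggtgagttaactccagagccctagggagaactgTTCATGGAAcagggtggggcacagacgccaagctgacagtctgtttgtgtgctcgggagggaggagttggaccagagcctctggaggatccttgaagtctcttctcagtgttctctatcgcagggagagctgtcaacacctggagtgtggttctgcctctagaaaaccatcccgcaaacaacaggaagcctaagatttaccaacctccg

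The Sham list was the longer one, and it gained more than it lost. Gained peaks made up 30.8% of Sham peaks (95% Wilson interval 30.4 to 31.2) and lost peaks 12.2% of Control peaks (11.9 to 12.5). The gained peaks covered 4.78 Mb of the 23.3 Mb under Sham peaks, and the lost peaks 1.58 of the 19.1 Mb under Control peaks. The asymmetry went with the length of the lists. When the 42204 peaks of highest signal were taken from each list, 9313 Sham peaks (22.1%) had no partner in the Control list and 8660 Control peaks (20.5%) none in the Sham list. The signal is the authors' F-seq density, which is not on a common scale between lists (the lowest value kept was 0.193 in Sham and 0.137 in Control mice), so it served to order the peaks of each list and nothing else. At the edge of the rule, 6 shared Sham peaks overlapped a Control peak by 10 bp or less, and 5 gained peaks lay within 10 bp of one.

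Gained and lost peaks were short and weak. The median length was 256 bp for gained against 405 bp for the other Sham peaks, and 248 bp for lost against 362 bp for the other Control peaks. The median signal was 0.264 for gained and 0.524 for shared Sham peaks, and 0.161 for lost and 0.278 for shared Control peaks. The strongest gained peak held rank 1976 of its list and the strongest lost peak rank 4680. Split into 10 equal parts by signal, 7 of the 5289 strongest Sham peaks (0.132%) were gained, against 69.2% in the weakest part, and in the Control list the share of lost peaks went from 0 of 4221 to 39.8%. Lost peaks were close to what remained: 32.5% of them (1672) lay within 500 bp of a Sham peak, with a median distance of 1614 bp. Gained peaks lay farther out, 10.1% (1641) within 500 bp of a Control peak and at a median of 7400 bp.

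**Figure D1:**
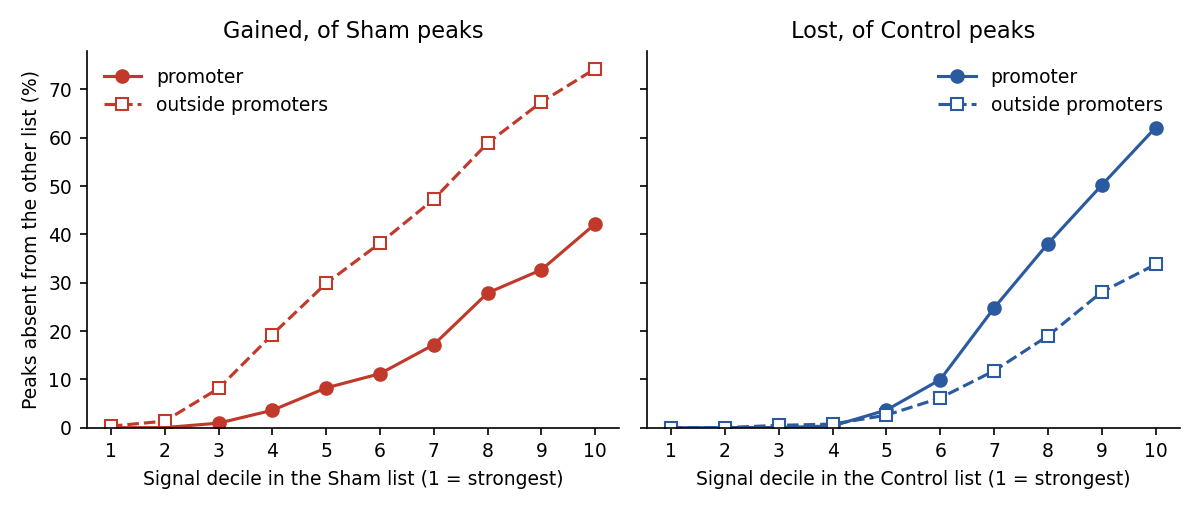
Share of peaks absent from the other list (y axis, percent) by signal decile within the list (x axis, 1 is the strongest), for gained peaks of the Sham list (left) and lost peaks of the Control list (right), at promoters (filled circles) and outside them (open squares). Both shares climb toward the weak end, and in the weakest decile 42.2% of promoter against 74.3% of other Sham peaks were gained, while 62.1% of promoter against 33.8% of other Control peaks were lost.

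Gained peaks were mostly distal. Of the gained peaks, 7.88% (7.48 to 8.31) lay within 1000 bp of a transcription start site, against 34.9% of shared Sham peaks, while 45.5% lay in introns and 42.9% between genes (shared: 30.0% and 31.6%). Lost peaks had a promoter share near that of shared Control peaks (34.6% and 34.8%), with 32% in introns, 5.75% in exons and 27.7% between genes (shared Control: 29.8%, 3.59% and 31.8%). Read the other way, 9.15% of promoter peaks, 40.3% of intronic peaks and 37.7% of intergenic peaks of the Sham list were gained, and 12.1%, 13% and 10.8% of those of the Control list were lost. The low share of gained peaks at promoters held at each signal level, being lower than outside promoters in 10 of 10 deciles. For lost peaks the order turned with signal: the promoter share was higher in 6 deciles, those of weaker signal, and lower in 3. Gained peaks rarely lay in CpG-rich DNA, defined on the central 300 bp as a GC content of at least 50% with an observed to expected CpG ratio of at least 0.6. Of the gained peaks 1.67% met this, against 26.6% of shared Sham peaks, 25.3% of lost peaks and 27.1% of shared Control peaks, and 40.2% of all 70051 promoter windows in the annotation. The contrast was also present among promoter peaks alone, with 11.9% of the gained and 65.3% of the shared Sham ones CpG-rich, and 58.4% of the lost and 66.6% of the shared Control ones. The median GC content was 48.7% in gained, 53.7% in shared Sham, 55.3% in lost and 54.3% in shared Control peaks.

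Outside promoters, gained peaks held more matches than lost peaks to motifs of liver enhancer factors and AP-1. Lost peaks held more matches than gained peaks to CTCF and SP1. Motifs were searched in the central 300 bp on both strands, and windows of the same length 5 kb to either side of the peaks served as background. The letters of AP-1 were TGANTCA, those of CEBP TTGCNNAA, of FOXA TGTTTAC, of HNF4A CAAAGTCCA, of CTCF TAGNGGGC, of SP1/KLF GGGCGGGG and of STAT TTCNNNGAA. The DR1 motif of PPAR with RXR, which HNF4A also binds, was AGGNCA followed after 1 base by AGGNCA. It can overlap the HNF4A letters, so both can count the same site.

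AP-1 matches were found in 15.4% of gained, 11.2% of shared Sham and 7.61% of lost peaks, against 8.61% of windows beside gained and 8% of windows beside lost peaks. CEBP matches were in 19.8%, 16.5% and 11.2%, with 11.8% and 10.5% beside them. FOXA matches, of the pioneer factors that open liver enhancers, were in 7.77%, 5.95% and 3.15%, with 4.29% and 3.8% beside them. In these 3 motifs the lost peaks were near the windows beside them and the gained peaks were above the shared ones. HNF4A matches were in 2.41%, 2.10% and 0.772%, with 0.519% and 0.267% beside them. DR1 matches were in 2.31% of gained and 2.28% of shared Sham peaks, which is the same share within counting error, and in 1.10% of lost peaks. HNF1 matches were likewise level between gained (3.28%) and shared peaks (3.27%). CTCF was the reverse, with 2.80% of gained, 4.59% of shared Sham and 7.37% of lost peaks and 1.75% and 1.71% beside them. SP1/KLF was in 1.44%, 4.08% and 4.75%. STAT was in 9.81%, 9.0% and 8.59% and differed little from the windows beside the peaks (9.15% and 8.47%). The glucocorticoid receptor type of motif (GNACA, 3 bases, TGTNC), added after the values of Tat were seen, was in 0.892%, 1.13% and 0.683%. Of all 70051 promoter windows, 6.60% held AP-1, 9.50% CEBP, 3.05% FOXA, 0.457% HNF4A, 0.384% DR1, 3.54% CTCF, 19.6% SP1/KLF, 7.54% STAT and 0.443% the glucocorticoid receptor type. For the motifs in the printed sequences that are not named so far, the PU.1 letters GAGGAAGT were in 2.94% of the promoter windows, AGATAAG as bound by GATA factors in 2.61%, and the E-box letters CACGTG in 7.29%. A match is a description of these letters and not of binding.

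**Figure D2:**
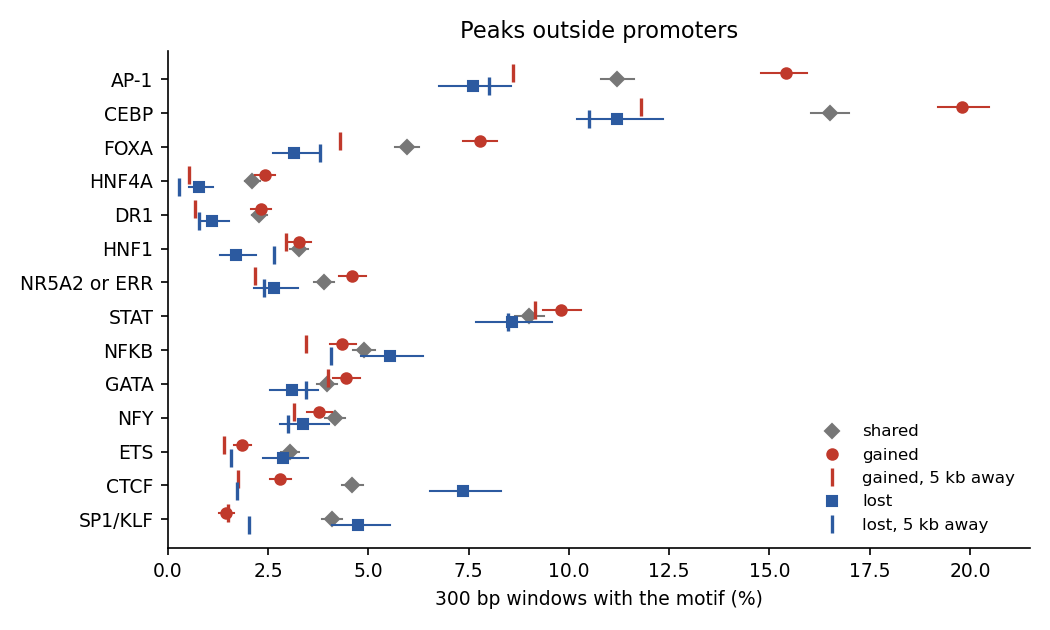
Share of 300 bp windows with a motif (x axis, percent) for 14 motifs (y axis) in gained, shared Sham and lost peaks outside promoters, with 95% Wilson intervals as lines, and in windows 5 kb away as upright ticks. AP-1, CEBP and FOXA are highest in gained peaks (15.4%, 19.8% and 7.77%), and CTCF and SP1/KLF are higher in lost peaks (7.37% and 4.75%) than in gained peaks (2.80% and 1.44%).

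Peaks present in both lists also differed in rank. In 34133 one-to-one pairs, the signal percentiles had a Spearman rho of 0.744, a description over peaks of the same libraries. Promoter pairs had a rho of 0.893 (11361 pairs) and a median shift of -4.77 percentile points in Sham mice. CpG-rich pairs had a shift of -6.17 points (rho 0.918), intronic pairs 3.24 points higher and intergenic pairs 2.02 points higher. Moves of 25 points or more were made upward by 3954 pairs (11.6%) and downward by 3574 (10.5%), and of promoter pairs 2.88% moved up and 12.5% down by that much. Outside promoters, where the median pair ranked 2.43 points higher, pairs with HNF4A ranked 8.68, FOXA 8.32, AP-1 7.07, DR1 6.97 and CEBP 6.81 points higher in Sham mice, and pairs with CTCF had a shift of -6.29 and with SP1/KLF of -6.02 points. Over all pairs the median length was 394 bp in the Sham and 353 bp in the Control list, with 69.6% of pairs longer in Sham. The Sham peak was the longer one in 76.9% of intronic, 77.9% of intergenic and 55.4% of promoter pairs. The medians had the opposite order in promoter pairs (521 bp in Sham, 549 bp in Control) and in CpG-rich pairs (539 and 580 bp).

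**Figure D3:**
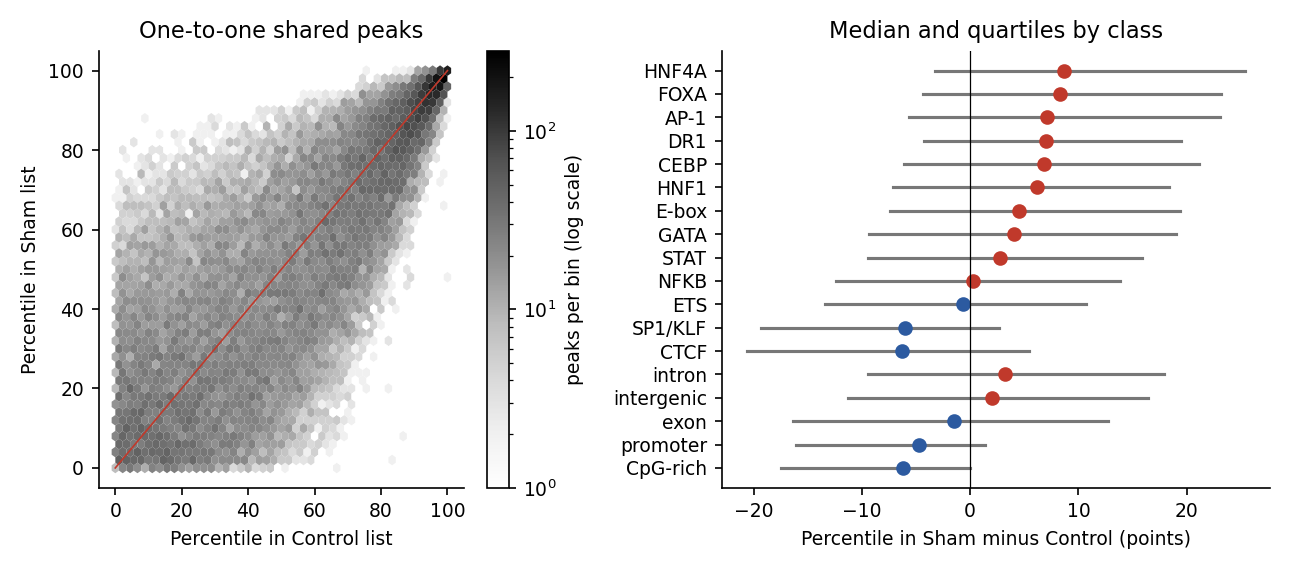
Left, signal percentile in the Control list (x axis) against that in the Sham list (y axis) for 34133 one-to-one shared peaks, with darker shade for more pairs on a log scale. Right, median (point) and quartiles (line) of the Sham minus Control percentile by class of peak, where promoter and CpG-rich pairs lie below 0 (-4.77 and -6.17 points) and distal pairs with HNF4A, FOXA, AP-1 or CEBP matches lie above it (6.81 to 8.68 points).

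The strongest gained peaks lay at a varied set of genes. The first was in the promoter of Med24, a subunit of the Mediator complex (chr11:98590553-98590915, signal 1.27, rank 1976). Slc5a6, the vitamin transporter for biotin and pantothenate, had one over an exon (chr5:31338907-31339578, signal 1.18). Next came Bhlhe40 (signal 1.08), an intergenic peak 26157 bp from the nearest transcript start of Ide, the insulin-degrading enzyme (chr19:37338994-37339427, 1.02), and peaks nearest to Olfr153, 9030625A04Rik, Ranbp10 and, 97170 bp away, the Notch target Hes1 (chr16:30163425-30163763, signal 0.965). All 8 were also in the VSG list. Among gained promoter peaks, the strongest after Med24 were at the histone genes Hist1h2ad (signal 0.826) and Hist1h2bp (0.738), then at Vbp1, Tbl3, Ppp5c, Rasgef1b and Fam129b (0.675). Of these 8, Hist1h2bp was the one without a VSG peak. None of the 15 gained regions named had a second copy in the genome, counted as a BLAST match of at least 95% identity over at least 80% of the peak.

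Several of the strongest lost peaks lay in repeated DNA. The first by signal was near Gm3395 on chromosome Y (chrY:2781994-2782565, rank 4680), followed by peaks at Gm17535 and Cpeb4 with 54 and 17 copies in the genome. Sfi1, a centrin-binding protein gene, came next (chr11:3068608-3069258), then Cyp4f17, Ankrd52, Gm10715 (28 copies) and Tat (chr8:112511553-112511852, signal 0.389, rank 11133). The lost promoter peaks added Nudt19, a peroxisomal CoA hydrolase, Pde2a, a cyclic nucleotide phosphodiesterase, Rtn2, Rlf, Gm10807 (2 copies) and Dux (5 copies). Of these 14 regions 5 had more than 1 copy. The one that was absent from the VSG list was the Tat peak. On chromosome Y 15 of 26 Control peaks (57.7%) were lost, against 10.2% to 13.6% on the autosomes, while the share of gained peaks was from 25.5% to 36.9% on the autosomes and 3 of 14 Sham peaks (21.4%) on chromosome Y.

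The largest moves in rank had the same character. Upward, the intronic Loxl2 peak went from percentile 0.0161 in Control to 87.2 in Sham, followed by Plekha1, a phosphoinositide-binding adaptor (6.54 to 91.1), the transcription factor gene Ets2 (8.89 to 88.6), 4930485B16Rik, Dpyd and Tmem45b (1.43 to 79.4), each with 1 copy and none at a promoter. Downward, the peaks nearest Gm15319 (90.5 to 0.416, 17 copies), Gm3395, Gpm6a (11 copies), Sfi1, Acot1 and Gm10718 (21 copies) stood first. The Acot1 peak (chr12:85350263-85350615 in the Control list) lies at the promoter, covers the start site and went from percentile 87.9 to 9.78. Acot1 encodes a cytosolic acyl-CoA thioesterase and is a PPARA target. Its FPKM was 70.4 and 157 in Control and 17.1 and 17.2 in Sham mice. Both Sham values were below both Control values, but the log2 change of -2.55 ± 0.46 (SE) had a limma adjusted p of 0.212.

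The VSG mice were not used to choose gained or lost peaks. Of the gained peaks 37.7% (36.9 to 38.4) overlapped a VSG peak, and of the lost peaks 38.8% (37.5 to 40.1) did, against 91.6% and 91.2% of the shared peaks of the Sham and Control lists. Both shares went with signal. Of the stronger gained peaks 54.7% and of the weaker 20.7% were in the VSG list, and for lost peaks the shares were 51.0% and 26.5%. The share was 51.8% for lost promoter peaks and 31.9% for other lost peaks, and for gained peaks the shares were 45.8% and 37.0%. With equal numbers from each list, 45.9% of gained and 44.4% of lost peaks had a VSG partner.

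Some lost peaks lay in runs, although a gene with any lost peak in it or within 10 kb had a median of 1, and 36 genes had 6 or more. Chained at distances of up to 5 kb, a search made after the lists had been seen, lost runs held 19 peaks at Sfi1 (chr11:3075158-3096825, 12 of them in the VSG list), 12 at C130026I21Rik (10 of them with more than 1 copy), 11 at Gm17379 on chromosome X, 7 at Gm15319 (7 with more than 1 copy) and 7 at Tat (chr8:112518522-112529348). Gained runs held 7 peaks at Srprb and Trf, 6 at Cat and Elf5, 6 at Paqr9 and 5 each at Spred2, Fermt2 and Adra2b. Counting peaks in the gene or within 10 kb, genes with many lost peaks were Gm20388 (42, a read-through model of 4434882 bp), Sfi1 (27 of its 66 Control peaks), Drg1 (17) and C130026I21Rik (14), of which neighbours share peaks. The genes with the most gained peaks were long ones: Gm20388 (89), Fgfr2 (39), Prkce (19), Arfip1 (18), Nos1ap (16) and Sgms1 (16).

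**Figure D4:**
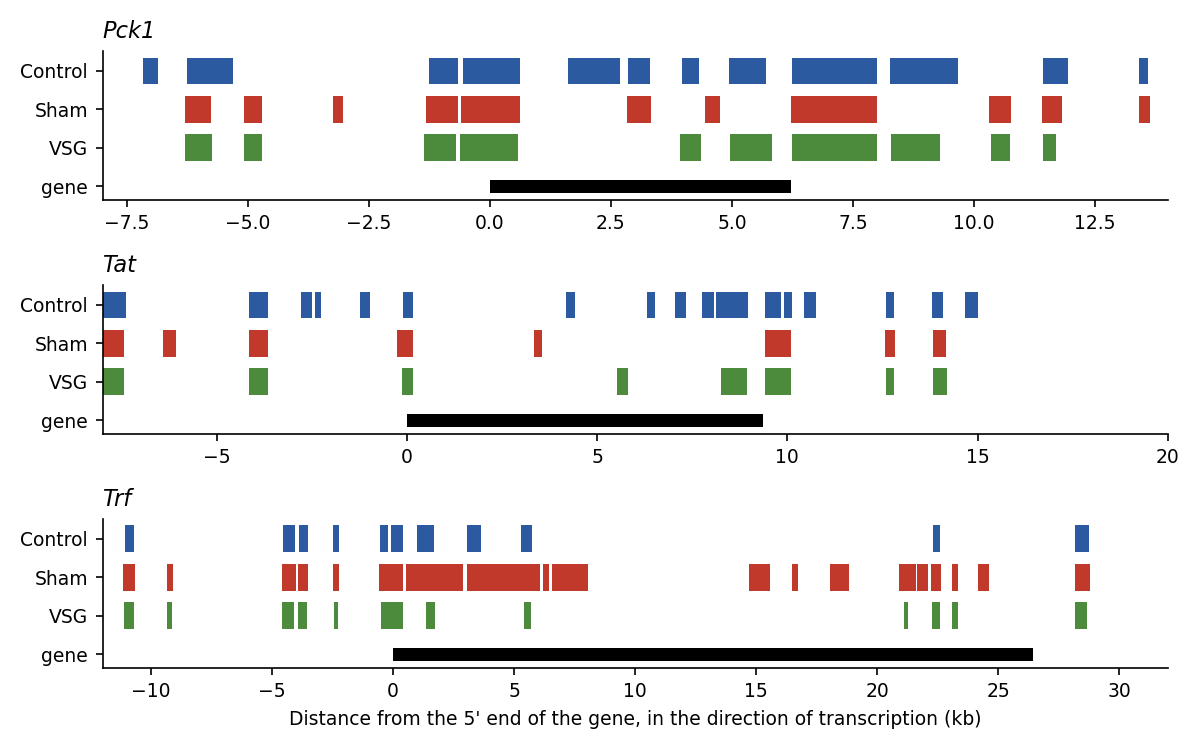
Peaks of the Control, Sham and VSG lists as bars at Pck1, Tat and Trf (x axis, distance from the 5′ end of the gene in kb, in the direction of transcription; black bar, gene body). Of the Control peaks in or near the gene 5 of 13 were lost at Pck1 and 10 of 17 at Tat, and Sham peaks fill the first part of Trf, with 10 gained peaks in or near the gene.

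The share of a gene's body under peaks was compared next. Among 11828 genes of at least 5 kb with a peak in the body, the median difference was 0.10 percentage points, 44 genes had at least 10 points more covered in Sham mice and 64 at least 10 points less (24 and 103 with lists of equal number). Pck1, the rate-limiting enzyme of gluconeogenesis, had 52.2% of its body under peaks in Control and 22.8% in Sham mice, and Tat 21.7% and 4.2%. Glyctk, a glycerate kinase, went from 64.7% to 36.5%, and Nr2f6, an orphan nuclear receptor, from 39.6% to 16.9%. Pck1 and Tat are known as genes that fasting induces in liver.

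In the opposite direction stood genes of several kinds. Trf, transferrin, had 9.0% under peaks in Control and 44.0% in Sham mice, and Ahsg, fetuin A, 18.3% and 41.9%. Bsg, the basigin partner of lactate transporters, had 8.71% and 28.1%, the kinase gene Mapk3 0% and 24.8%, Trib1, a regulator of CEBPA turnover, 44.4% and 66.5%, and Cyp2e1, an ethanol-oxidizing enzyme, 3.28% and 18.9%. Coverage in the VSG list was 6.75% for Trf, 23.1% for Ahsg, 12.6% for Bsg, 30.2% for Pck1 and 12.3% for Tat. VSG was nearer to Control than to Sham in 37 of the 44 genes with more and in 26 of the 64 genes with less coverage. The VSG list covered 18.5 Mb in all, against 19.1 Mb in the Control list and 23.3 Mb in the Sham list. How far these counts follow the size of the lists was not tested. They were not repeated with lists of equal number or set beside a share over all genes. The coverage measure was added after the runs had been seen.

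**Figure D5:**
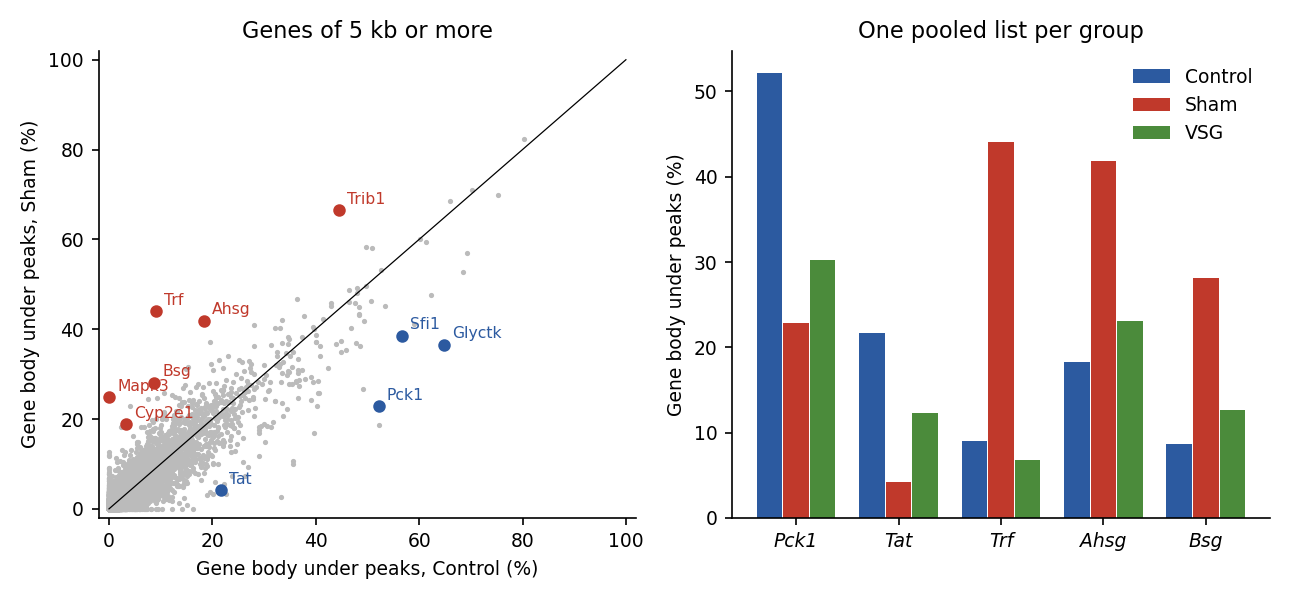
Left, share of the gene body under peaks in Control (x axis, percent) and Sham mice (y axis) for genes of at least 5 kb, with named genes in red (more in Sham) or blue (less). Right, the same share in the 3 lists for 5 genes, 1 pooled list per group and so without error bars; Pck1 is at 52.2%, 22.8% and 30.2% and Trf at 9.0%, 44.0% and 6.75% in Control, Sham and VSG.

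RNA of these same mice is a separate readout, with a value per mouse in FPKM (fragments per kilobase of transcript, scaled to the mapped fragments of a library). limma on log2(FPKM + 1) tested 9751 genes, of which 11 (0.113%) were higher and 19 (0.195%) lower in Sham than in Control mice at an FDR of 10%, and 1070 had an unadjusted p below 0.05. At a pseudocount of 0.1 limma called 19 higher and 15 lower, with 22 of the 30 genes kept, so the balance of directions depends on this setting. Of the called genes in the annotation of peaks, 2 of 7 higher ones had a gained peak and 1 a lost peak within 10 kb, and 7 of 15 lower ones had a gained and 4 a lost peak, beside 35.0% of all 22367 protein-coding genes with a gained and 19.8% with a lost peak. Many of these calls rest on a group listed at 0 FPKM, which can be a failed estimate, and 1250 of the genes tested had a 0 in at least 1 of the 4 mice.

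Tat was the called gene with the most lost peaks nearby, 10 of its 17 Control peaks. Its FPKM was 1376 and 1477 in Control and 210 and 188 in Sham mice. It fell by 2.84 ± 0.24 (SE, log2(FPKM + 1) scale, limma adjusted p = 0.0435), and the groups did not overlap. Cyp2b10, a drug-metabolizing target of the receptor CAR with 1 lost peak, fell by 3.23 ± 0.23 on that scale (limma adjusted p = 0.0238), from 8.46 and 8.81 FPKM to 0.0389 and 0.00900. Scd2, a fatty acid desaturase with 1 gained peak, fell by 2.40 ± 0.26 (limma adjusted p = 0.0862), from 5.50 and 6.49 to 0.316 and 0.320. Slc43a3, a purine transporter, had 1 gained peak and fell by 2.03 ± 0.22 (limma adjusted p = 0.0816). Upward, Ly6d, a surface protein gene, had 2 gained and 1 lost peak and rose by 5.72 ± 0.58 (limma adjusted p = 0.0710), from 1.01 and 1.22 to 82.5 and 148. Ucp2, a mitochondrial carrier, rose by 2.23 ± 0.22 (limma adjusted p = 0.0691), from 10.04 and 8.42 to 42.9 and 50.9, with no gained or lost peak nearby. None of these calls holds when a Control mouse is left out, when limma calls no gene.

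The other genes named for coverage that had FPKM values did not pass this test. Pck1 was at 1490 and 1485 FPKM in Control and 454 and 688 in Sham mice (log2 change -1.41 ± 0.49, limma adjusted p = 0.417), with the Sham values below the Control values. Glyctk was at 73.3 and 96.1 against 23.1 and 88.8, with overlap, and Nr2f6 at 32.1 and 26.1 against 39.0 and 41.7, with both Sham values above (0.46 ± 0.22, limma adjusted p = 0.521). Ahsg was at 5256 and 5433 in Control and at 4194 and 9213 in Sham mice, and Cyp2e1 at 4111 and 4036 against 4686 and 2047, so both overlapped too. Bsg was at 164 and 151 against 395 and 333 (1.20 ± 0.27, limma adjusted p = 0.283), without overlap. Trf has no FPKM value and was not analysed here. Of the genes with at least 10 points more coverage in Sham mice, 36 were tested for RNA, with a median log2 change of 0.37 and 77.8% above 0, and of those with at least 10 points less, 50 were tested, with a median of 0.04 and 54.0% above 0. Over all 7737 genes with both measures the median was 0.01, with 50.4% above 0, and both differences together had a Spearman rho of 0.036 across genes, which are not independent.

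Peaks at promoters went with little difference in RNA. Genes with a gained promoter peak had a median log2 change of 0.06 (816 tested, 53.4% higher in Sham), those with a lost promoter peak -0.07 (1203 tested, 44.6% higher), and those with shared promoter peaks alone 0.04 (6665 tested, 53.5% higher), beside 0.03 over all genes tested. Of all genes tested 52.6% were higher in Sham, the background for the counts of list genes above 0 that follow. Genes of a list are not independent of each other. Among genes with a gained and no shared promoter peak the median was 0.13 (179 tested, 59.8% higher). Among those with a lost and no shared one it was 0.05 (207 tested, 52.2% higher). By number of lost peaks in the gene or within 10 kb, the median went from 0.05 with none (6590 genes) to -0.14 with 3 to 5 (202 genes, 41.6% higher) and -0.40 with 6 or more (24 genes, 29.2% higher), some of which are neighbours that share peaks. The last value was -0.98 at a pseudocount of 0.1 and -0.74 without Sham replicate 2. By number of gained peaks it was 0.03 with none and -0.01 with 6 or more (197 genes).

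Of 15 PPARG and lipid droplet genes 8 had a gained peak in the gene or within 10 kb and 2 a lost peak, beside 35.0% and 19.8% of all protein-coding genes. Of their peaks, 17 of 64 Sham peaks (26.6%) were gained and 4 of 49 Control peaks (8.16%) lost, against 30.8% and 12.2% of all peaks. Pparg itself had 6 gained peaks among 8 in Sham mice, against 2 peaks in Control, and without it 19.6% of the list's Sham peaks were gained. Its FPKM was 2.34 and 3.50 in Control and 11.1 and 2.58 in Sham mice, with overlap. Cidea, a lipid droplet protein gene, had no Control peak and 3 gained peaks, with 0.0367 and 0.0441 FPKM in Control and 12.9 and 5.30 in Sham mice (log2 change 3.17 ± 0.84, limma adjusted p = 0.349). Cd36, the fatty acid transporter, had no Control peak and 2 gained peaks, with 6.73 and 6.48 FPKM against 22.5 and 23.3 (1.65 ± 0.21, limma adjusted p = 0.118). For both, Sham values were above Control values. Cidec and G0s2, lipid droplet proteins, each had 2 lost peaks and no gained one. In RNA 12 of 14 genes tested had a positive log2 change, beside 52.6% of all genes tested. Their median was 0.62, and none was called.

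Of 15 fatty acid synthesis genes 14 had a gained and 6 a lost peak, beside 35.0% and 19.8% of all protein-coding genes. Of their peaks, 34 of 138 in the Sham list (24.6%) were gained and 11 of 119 in the Control list (9.24%) lost, beside 30.8% and 12.2% of all peaks. Elovl5, a fatty acid elongase, had 6 gained peaks and Acaca, acetyl-CoA carboxylase, 5, and neither had a lost one. Dgat2, which makes triglyceride, had 4 of each. In the RNA of this list 3 of 13 tested genes had a log2 change above 0, with a median of -0.70. Scd1, the main desaturase of the liver, was at 1123 and 308 FPKM in Control and 27.7 and 4.32 in Sham mice (-5.58 ± 1.51, limma adjusted p = 0.352).

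Of 16 fatty acid oxidation and ketone genes 12 had a gained and 6 a lost peak, beside 35.0% and 19.8% of all protein-coding genes, with 23 of 106 Sham peaks (21.7%) gained and 11 of 95 Control peaks (11.6%) lost, against 30.8% and 12.2% of all peaks. Ppara, the nuclear receptor for fatty acids, had 5 of these lost peaks, and without it 6 of 71 (8.45%) were lost. Cyp4a10, a fatty acid hydroxylase, lost both of its Control peaks and had none in Sham mice, with an FPKM of 263 and 536 in Control and 163 and 103 in Sham mice (-1.53 ± 0.43, limma adjusted p = 0.358). Bdh1, a ketone body dehydrogenase, had 4 gained peaks and no lost peak. Fgf21, a fasting hormone gene shorter than 5 kb, had 74.5% of its body under peaks in Sham and 12.2% in Control mice. Its FPKM was 4.54 and 7.75 in Control and 21.1 and 116 in Sham mice (2.87 ± 1.36, limma adjusted p = 0.516). The RNA median of this list was -0.28, with 6 of 16 genes above 0.

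In the glucose and insulin list 33 of 133 Sham peaks (24.8%) were gained and 16 of 117 Control peaks (13.7%) lost, beside 30.8% and 12.2% of all peaks. Pck1 had 5 lost and 4 gained peaks. G6pc, glucose-6-phosphatase, had 2 lost and 1 gained peak, with 144 and 272 FPKM in Control and 24.3 and 27.0 in Sham mice (-2.90 ± 0.42, limma adjusted p = 0.156). Insr, the insulin receptor, had 7 gained and 2 lost peaks, and Irs1, its adaptor, 4 gained peaks and no lost one, with FPKM of 1.29 and 1.36 against 1.30 and 1.11. The list's median RNA change was -0.46, with 3 of 16 genes above 0.

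In the sterol lists, cholesterol genes had 14 of 42 Sham peaks (33.3%) gained, near the 30.8% over all Sham peaks, and 6 of 35 Control peaks (17.1%) lost, beside 12.2% of all Control peaks. Fdft1, squalene synthase, had 5 gained peaks and no lost one, and without it 9 of 33 Sham peaks (27.3%) were gained. Fdps, which makes farnesyl diphosphate, had 2 lost peaks and no gained one. Bile acid genes had 19 of 73 (26.0%) gained and 7 of 64 (10.9%) lost, with 6 gained peaks at Nr1h4, the bile acid receptor. Cyp8b1, the sterol 12-alpha-hydroxylase, had 81.4% of its short body under peaks in Control and 14.9% in Sham mice, with FPKM of 178 and 110 against 177 and 30.3. The median RNA change was -0.02 in both lists. Drug-metabolizing Cyp genes had 14 of 45 Sham peaks (31.1%) gained and 4 of 36 Control peaks (11.1%) lost, near the share over all peaks, while their median RNA change was -2.21, with 4 of 19 genes above 0 and Cyp2b10 called.

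Acute phase genes, which the liver turns on during inflammation, had a gained peak at 15 of 20 and a lost peak at 8 of 20 genes, beside 35.0% and 19.8% of all protein-coding genes. Of their peaks 31 of 109 (28.4%) were gained and 10 of 93 (10.8%) lost, near the 30.8% and 12.2% over all peaks. Fgb and Fga, neighbours in the fibrinogen cluster that share peaks, had 6 and 5 gained peaks, Il6ra, the interleukin 6 receptor, 5, and Stat3, its transcription factor, 4. Of the genes named next for coverage, Orm2, Hp and Lcn2 are shorter than the 5 kb set for the coverage counts above. Socs3 of this list, also short, went the other way, from 92.3% of its body under peaks in Control to 69.9% in Sham mice. Orm2, an acute phase glycoprotein, had 11.9% of its body under peaks in Control and 44.4% in Sham mice. Its FPKM was 178 and 180 in Control and 4769 and 7138 in Sham mice (5.02 ± 0.72, limma adjusted p = 0.156). Hp, haptoglobin, had 8.43% and 35.4% under peaks and 5340 and 5572 FPKM against 14410 and 22141 (1.71 ± 0.57, limma adjusted p = 0.411). Orm1 had 2 gained peaks, with 1351 and 1318 FPKM against 6956 and 11194 (2.72 ± 0.62, limma adjusted p = 0.283), and the printed peak was absent from the VSG list. Lcn2, a siderophore-binding protein, was covered at 11.3% and 27.3% and had 154 and 109 FPKM against 1932 and 5279 (4.62, limma adjusted p = 0.328). None of these 4 genes passed the test, although both Sham mice were above both Control mice. The share of all tested genes that separate in this way was not counted. Other genes of the list did not rise, such as Hamp, at 2052 and 2407 FPKM in Control and 1253 and 718 in Sham mice. Crp was at 261 and 312 against 240 and 298, with overlap. The Orm genes are close copies, and reads could be split between them. The list's median RNA change was 1.21, with 10 of 13 genes above 0, beside 52.6% of all genes tested.

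Interferon response genes and chemokines had 1 lost peak each, out of lists with few Control peaks, and gained shares near the 30.8% over all Sham peaks. Of 12 interferon genes 9 had a gained and 1 a lost peak (11 of 36 Sham peaks, 30.6%, and 1 of 26 Control peaks, 3.85%), and of 14 chemokine genes 8 and 1 (9 of 31, 29.0%, and 1 of 23, 4.35%), beside 12.2% of all Control peaks lost and 35.0% and 19.8% of all protein-coding genes with a gained and a lost peak. Isg15, a ubiquitin-like protein, had 1 gained peak and 5.75 and 4.52 FPKM in Control and 35.8 and 15.4 in Sham mice (2.01 ± 0.46, limma adjusted p = 0.289). In RNA 10 of 10 interferon genes tested had a positive log2 change, beside 52.6% of all genes tested. Their median was 0.81, and none was called. Innate immune sensing genes had 10 of 49 (20.4%) gained and 6 of 46 (13.0%) lost. Cd14, the lipopolysaccharide coreceptor, had 1 gained peak, with 2.25 and 1.31 FPKM against 8.13 and 49.0 (2.96 ± 0.82, limma adjusted p = 0.355).

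Lists of regulators had gained shares from 17.5% to 21.0% and lost shares from 8.00% to 13.3%, beside 30.8% and 12.2% of all peaks. Liver transcription factors had 40 of 220 Sham peaks (18.2%) gained and 28 of 211 Control peaks (13.3%) lost, circadian clock genes 26 of 124 (21.0%) and 13 of 116 (11.2%), immediate early genes 14 of 80 (17.5%) and 7 of 84 (8.33%), and endoplasmic reticulum stress genes 12 of 59 (20.3%) and 4 of 50 (8.00%). Rxra, the partner of PPAR, had 8 gained and 2 lost peaks, Tead1, a Hippo pathway factor, 6 gained and 2 lost, and Prox1, a regulator of hepatocyte identity, 5 lost and 3 gained. Hnf4a had 3 of each. Per2, a core clock repressor, had 4 gained and 1 lost peak, with an FPKM of 5.74 and 3.12 in Control and 1.30 and 3.62 in Sham mice.

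Marker sums of several cell types differed between the groups in RNA, and their part in the peak differences was not tested. The summed FPKM of 14 Kupffer cell and macrophage markers was 49.6 and 36.7 in Control and 132 and 170 in Sham mice. Of 12 tested genes 11 were above 0, beside 52.6% of all genes tested. C1qa, C1qb, Lyz2 and Marco made up much of the Sham sums, with Lyz2 at 6.54 and 6.69 against 22.2 and 60.0 FPKM. Clec4f (5.22 and 3.53 against 2.11 and 8.75), Csf1r (2.20 and 1.36 against 0.875 and 2.49) and Timd4 overlapped between the groups. Of the 13 markers in the annotation, 3 had a gained and 0 a lost peak (4 of 13 Sham peaks), beside 35.0% and 19.8% of all protein-coding genes. Neutrophil marker sums were 13.1 and 5.32 against 41.7 and 44.0, cholangiocyte sums 30.7 and 32.7 against 186 and 62.9, stellate cell and matrix sums 49.6 and 50.8 against 18.6 and 32.6, and lymphocyte sums from 0.967 to 3.15 in the 4 mice. The neutrophil sum is mostly S100a8 (6.94 and 2.25 against 21.6 and 23.2 FPKM) and S100a9 (5.40 and 2.66 against 18.2 and 19.9). Elane was at 0.0492 and 0 against 0.947 and 0.673. Csf3r was at 0.725 and 0.409 against 0.715 and 0.216, and Ly6g was at 0 in all 4 mice. The cholangiocyte sum is mostly Spp1, osteopontin (28.5 and 29.4 against 183 and 58.4 FPKM). Sox9 was also higher in both Sham mice (0.384 and 1.26 against 2.05 and 2.75). The keratin gene Krt19 was at 0.584 and 1.01 against 0.0731 and 0.840, and Krt7 at 0.561 and 0.459 against 0.0377 and 0.479. The adhesion gene Epcam was at 0.683 and 0.638 against 0.365 and 0.503. The stellate and matrix sum is mostly Dcn, decorin, at 40.6 and 41.7 against 13.9 and 23.8 FPKM. Of the 35 Sham peaks of sinusoidal endothelial markers 18 (51.4%) were gained, with 8 at Stab2, 4 at Pecam1 and 3 at Kdr, and 2 of 19 Control peaks (10.5%) were lost, beside 30.8% and 12.2% of all peaks. Without Stab2 10 of 22 Sham peaks (45.5%) were gained. The summed FPKM of the endothelial markers was 41.2 and 16.0 in Control and 7.17 and 5.52 in Sham mice. Clec4g made up much of the first Control value (26.1 and 4.35 against 3.93 and 2.19), and 0 of 7 tested genes had a log2 change above 0. Hepatocyte markers had 31 of 113 Sham peaks (27.4%) gained and 23 of 113 Control peaks (20.4%) lost, 13.5% lost without Tat. The 11 of 14 with FPKM values, which leave out Alb, Serpina1a and Fgb, summed to 44952 and 38010 FPKM against 40207 and 27967, with overlap. A log2 change above 0 was found in 2 of these 11 genes, and the median of the 11 was -0.99. Apob and Hnf4a were listed at 0 FPKM in Sham replicate 1, which can be a failed estimate. In Sham replicate 2 Apob was at 231, against 196 and 304 in Control, and Hnf4a at 73.3, against 31.0 and 55.6. Markers of tissues outside the liver had 7 of 17 Sham peaks gained at 6 of 10 genes, with sums from 0.693 to 2.05 FPKM in the 4 mice.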

How the data were processed

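The authors aligned FAIRE-seq reads to mm9 with Bowtie, kept unique, paired, non-duplicate reads, called peaks with F-seq and kept those reproducible by IDR in both mice of a group. The deposited signal is the F-seq density of a peak, without a common scale between lists. The FPKM values per RefSeq transcript and mouse were estimated by the authors with Cufflinks after TopHat2 alignment. Tables with the authors' own comparisons (lists of variable sites, DESeq2 fold changes and p-values) were not used. The processing notes name no versions.

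Peaks were intersected at 1 bp or more and placed on GENCODE vM1 protein-coding genes (NCBIM37, the mm9 assembly) by their centre. A gene's peaks are those in it or within 10 kb. Motifs and CpG content were read from the central 300 bp of the genome sequence, and copies were counted with BLAST. FPKM were summed per gene, 24023 genes from 34046 of 34933 transcripts with a symbol (RefSeq gene table, GRCm38.p6, names only). Genes with at least 1 FPKM in at least 2 of the 6 mice were fitted with limma 3.58.1 (R 4.3.3, trend, all 3 groups) on log2(FPKM + 1), with Benjamini-Hochberg adjustment. Where nothing says that the mice came from separate litters or cages, p-values measure the spread between these mice alone. Other steps used Python 3.11.15, pandas 2.3.3, scipy 1.17.1 and pysam 0.24.0. The scripts were tested on simulated data.

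Named regions are the 8 gained and 8 lost peaks of highest signal, the same at promoters, and the 6 largest moves in rank each way. Named genes are the 6 with the most gained and the 6 with the most lost peaks, and members of the 15 function lists with such a peak. Some genes, with the regions at them, are left out of the lists and are not reported here. Genes named for gene-body coverage, RNA calls and runs were chosen after their values were seen. The comparison and its lists were chosen with earlier results of these data known. Alternatives covered equal list lengths, overlap, peak length, windows, pseudocount, filter, leaving out mice and a replicate block.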

Additional observations from a re-analysis of the deposited data

How the results depend on the processing

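Peak lists of equal number gave 9313 gained and 8660 lost peaks, a rho of 0.736 (0.725 with the most overlapped partner), promoter shares of 6.92% and 31.7%, VSG shares of 45.9% and 44.4%, and CpG-rich shares of 1.15% and 23.1% for gained and lost peaks. They also gave 24 genes with at least 10 points more and 103 with at least 10 points less gene-body coverage in Sham, where the full lists gave 44 and 64. The balance between these counts thus changed with this setting, and the cause was not tested. With peaks of at least 250 bp 3356 were lost. Promoters of 500 bp held 4.47% of gained and 23.4% of lost peaks, and a 500 bp window made 1.26% of gained peaks CpG-rich. Settings added after the data were seen gave CpG-rich shares at promoters of 11.9% (gained) and 58.4% (lost), and DR1 in 1.10% of lost peaks outside promoters, against 0.777% of all lost peaks.

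limma called 19 genes higher and 15 lower at a pseudocount of 0.1, against 11 and 19 at 1, with 22 of the 30 genes kept. It called 62 genes without a filter and from 0 to 158 when 1 mouse was left out, with 0 without Control replicate 1 (588 genes at an unadjusted p below 0.05, smallest adjusted p 0.106) or without Control replicate 2 (532 genes, 0.157), 57 without Sham replicate 1 and 158 without Sham replicate 2. With 1 mouse left in a group, that mouse is assumed to vary like the other groups. With the replicate number as a block limma called 9 genes, against 30 without the block. The labels use the numbers 1 and 2 in each group without tying the mice together, and same-numbered mice correlated at 0.107 for Control with Sham, 0.0589 for Control with VSG and 0.0302 for Sham with VSG over 9751 genes, so the numbers were not taken as pairs. The median RNA change with a gained promoter peak was from 0.025 to 0.10 when 1 mouse was left out. With a lost promoter peak it was from -0.13 to -0.043, -0.014 without the filter and -0.012 with peaks within 10 kb of a start site. For genes with 6 or more lost peaks it was -0.98 at a pseudocount of 0.1 and from -0.74 to -0.40 when 1 mouse was left out, settings added after the data were seen. The cause of these shifts was not tested. The depth behind the peak lists is unknown, so a peak absent from a list may lie below its threshold, and 2 mice a group limit the RNA calls.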
